A study of Mus musculus with 8 samples.

Results

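The genes described here encode the matrix metalloproteinases (Mmp), their tissue inhibitors (Timp), the ADAMTS proteases and the related ADAMTS-like proteins (Adamts, Adamtsl), the lysyl oxidases (Lox, Loxl), the collagen prolyl 4-hydroxylases (P4ha) and the lysyl hydroxylases (Plod). They were taken by symbol from the gene counts of mouse tibialis anterior (TA) muscle, as every gene whose symbol begins with Mmp or Timp and a digit or with Adamts, Lox, P4ha or Plod. The rule found 41 of the 12551 genes in the table, and all 41 passed the filter on low counts. They were 9 metalloproteinases, 4 TIMPs, 13 ADAMTS proteases, 5 ADAMTS-like proteins, 5 lysyl oxidases, 2 prolyl 4-hydroxylase subunits and 3 lysyl hydroxylases. GENCODE lists 62 protein-coding mouse genes with such symbols, and the other 21 were not analysed here.

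RNA was sequenced from whole TA muscles of male mice at 7 weeks of age. The 4 KL-/- mice carried the Klotho null/null genotype and the 4 WT mice were wt/wt for Klotho, all bred from heterozygous mice on a mixed background, with no other allele or treatment named. Klotho is lost from the whole body in these mice, not from muscle alone. The comparison asks how the muscle transcriptome differs when Klotho is absent. The Klotho transcript itself was not analysed here, and the genotypes rest on the labels.

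Collagen is made as a precursor in the endoplasmic reticulum, where prolyl 4-hydroxylases stabilise its triple helix and lysyl hydroxylases prepare lysines for later cross-links. Outside the cell, ADAMTS proteases of the procollagen N-proteinase group trim it and lysyl oxidases join the fibrils covalently. Metalloproteinases and other ADAMTS proteases cut collagen, proteoglycans and glycoproteins, and the TIMPs inhibit them. In muscle most of these proteins come from fibroblast-like cells of the connective tissue, although fibres, vessels and immune cells make some of them.

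Counts on genes summed to 20860262 to 29273758 per library, so that a floor of 3 counts lay at 0.105 to 0.143 CPM, the count relative to library size. CPM here are scaled with TMM factors (edgeR), of 1.02 to 1.05 for WT libraries and 0.950 to 0.980 for KL-/- libraries. Levels of different genes are compared only as CPM per kilobase of the deposited gene length, written FPKM. The labels give KL-/- replicate 3 another batch date than the remaining 7 libraries, and since it is a single library the date cannot be told apart from the mouse. All 7 muscle fibre markers were measured, with summed levels of 108265 to 128772 CPM in WT and 131644 to 180236 CPM in KL-/- libraries. Because RNA came from whole muscle, fewer cells of a type and less RNA per cell cannot be told apart in any result that follows.

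Of the 41 genes, 2 were higher and 7 were lower in KL-/- muscle at a false discovery rate (FDR) under 0.05, by edgeR's quasi-likelihood test with Benjamini-Hochberg adjustment over all 12551 genes. *Adamtsl4* and *Timp3* rose. *P4ha1*, *Mmp15*, *Timp2*, *Adamts5*, *Mmp23*, *Loxl1* and *Adamts14* fell. The share called was 22% of the 41 genes and 14% of all genes tested. Divided by direction, 4.88% of the 41 were higher against 7.35% of all genes, and 17.1% were lower against 6.67% of all genes. The log2 fold change, KL-/- over WT, was negative in 30 of the 41 genes (73.2%, against 52.4% of all genes), and positive in 11 (26.8%, against 47.6%), with a median of -0.37 against -0.016 over all genes. The plot of fold changes by role shows the 7 called decreases among the metalloproteinases, the ADAMTS proteases, the TIMPs, the lysyl oxidases and the prolyl 4-hydroxylases, and the 2 called increases among the ADAMTS-like proteins and the TIMPs.

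**Figure D1:**
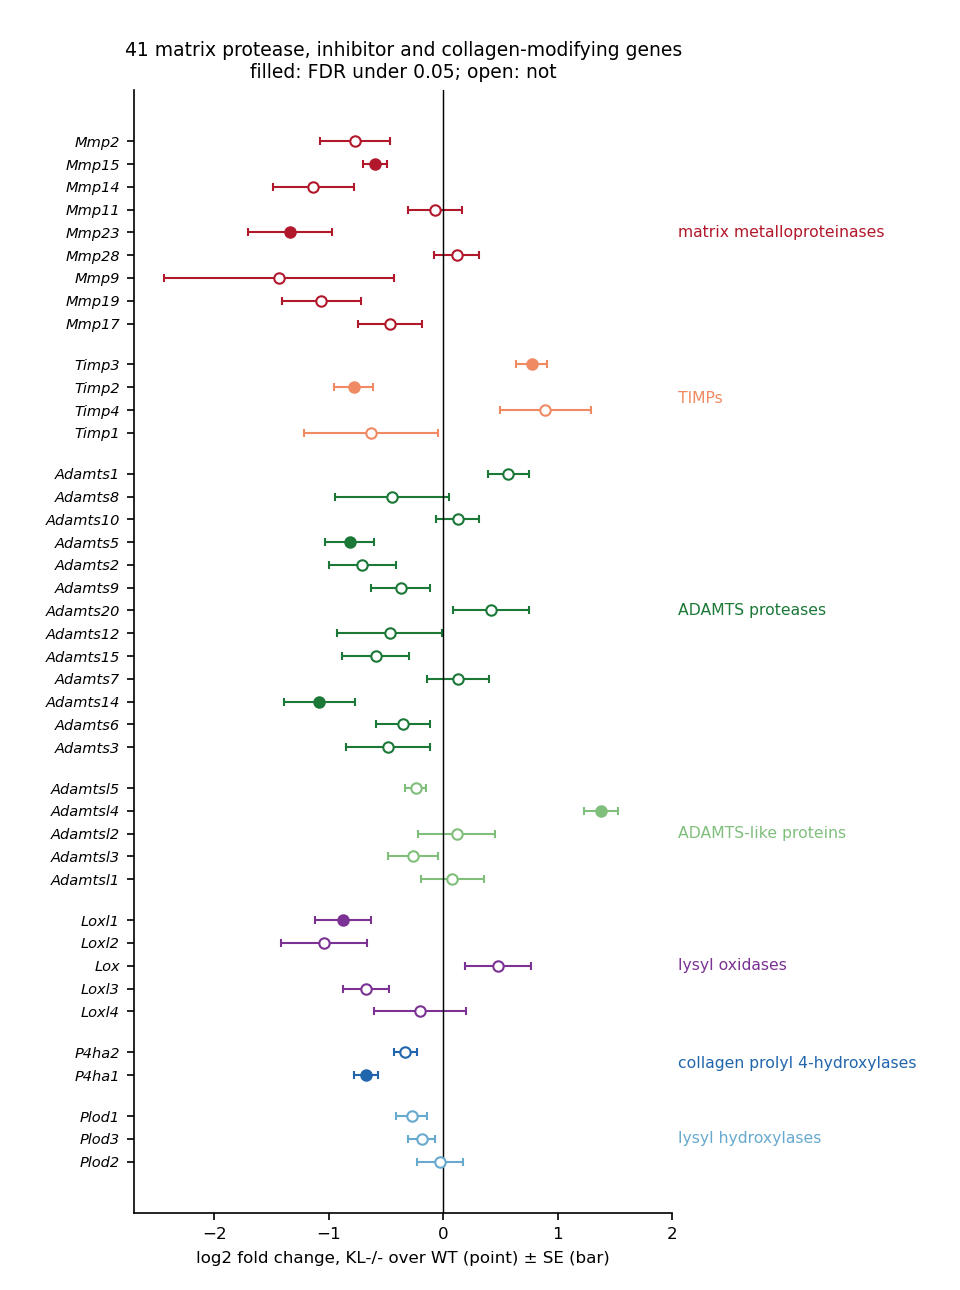
Log2 fold change, KL-/- over WT, of the 41 genes (x axis, points, with the standard error as bars), grouped by role and ordered by level per gene length within a role (y axis). Filled points had an FDR under 0.05 in edgeR's quasi-likelihood test, and 30 of the 41 points lie below 0.

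The 4 libraries of one genotype all lay on one side of the 4 of the other in 8 of the 41 genes, which is 19.5% of them, against 19.7% of all genes tested. KL-/- libraries were above in *Adamtsl4* and *Timp3* (4.88% against 10.2% of all genes). They were below in *P4ha1*, *P4ha2*, *Mmp15*, *Timp2*, *Loxl1* and *Loxl3* (14.6% against 9.47%).

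The calls differed in how far they rested on single mice. *Adamtsl4*, *Timp3*, *P4ha1* and *Mmp15* kept an FDR under 0.05 in all 8 fits that left out 1 library, including the fit without KL-/- replicate 3, and under the 9 other settings tried. The remaining 5 of the 9 did not keep it in every such fit, as given for each gene. Without WT replicate 2, WT replicate 3, KL-/- replicate 3 or KL-/- replicate 4, only 2 of the 41 genes were lower, *P4ha1* and *Mmp15*, and in each of these fits the same 2 genes were higher. The count of lower genes was 3 without KL-/- replicate 1, 7 without WT replicate 1, 10 without WT replicate 4 and 11 without KL-/- replicate 2. The count over all genes moved as well, from 1759 to between 762 and 2755. Of all genes, 14% were called with all 8 libraries. The share was 6.21% without WT replicate 2, 6.17% without WT replicate 3, 6.07% without KL-/- replicate 3 and 6.2% without KL-/- replicate 4. It was 9.75% without KL-/- replicate 1, 9.51% without WT replicate 1, 10.9% without WT replicate 4 and 22% without KL-/- replicate 2.

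**Figure D2:**
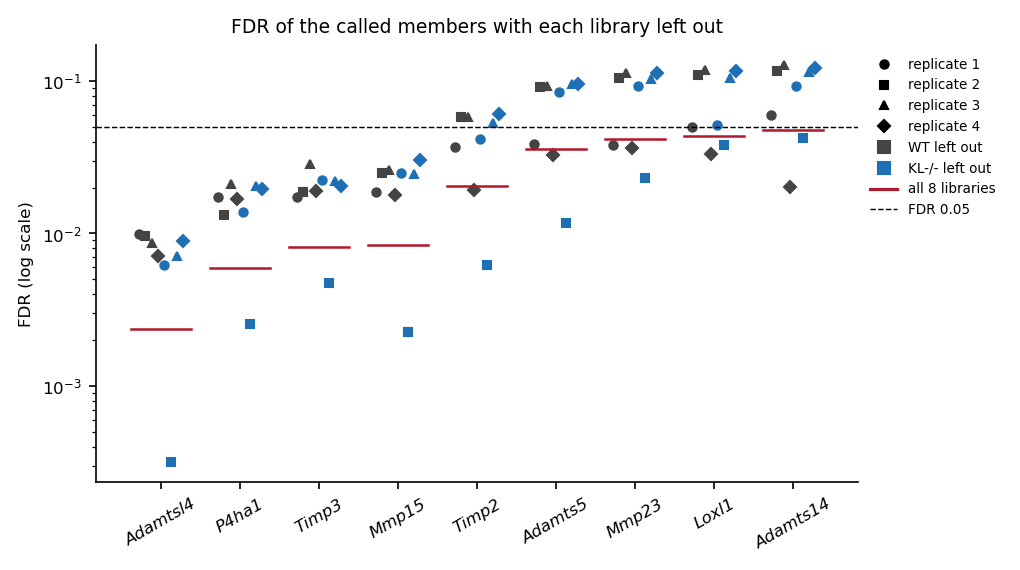
FDR of the 9 called genes (x axis) on a log scale (y axis) with all 8 libraries (red lines) and with each library left out (points; shape gives the replicate, colour the genotype). The points of *Adamtsl4*, *P4ha1*, *Timp3* and *Mmp15* all lie under the dashed line at 0.05, and those of the other 5 genes lie on both sides of it.

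Sequence upstream of the start site is shown for these 4 genes, since their calls did not depend on any 1 library. RefSeq promoter windows on GRCm38.p6 (mm10) were matched for 25 of the 41 genes and cover 250 bases before the start site, and bases that lie in annotated exons were left off. Capitals mark the motifs found. The GC box (GGGCGG or CCGCCC) is bound by Sp/KLF factors. The core of the hypoxia response element, bound by HIF, was searched only as ACGTG (or CACGT), so its GCGTG form is unmarked.
*Adamtsl4*, chr3:95687918-95688167, minus strand: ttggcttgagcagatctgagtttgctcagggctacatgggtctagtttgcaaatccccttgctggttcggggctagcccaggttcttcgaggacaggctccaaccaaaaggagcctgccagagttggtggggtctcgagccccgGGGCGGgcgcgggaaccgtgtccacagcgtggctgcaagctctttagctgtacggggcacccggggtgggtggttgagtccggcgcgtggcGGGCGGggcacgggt
*P4ha1*, chr10:59323046-59323295, plus strand: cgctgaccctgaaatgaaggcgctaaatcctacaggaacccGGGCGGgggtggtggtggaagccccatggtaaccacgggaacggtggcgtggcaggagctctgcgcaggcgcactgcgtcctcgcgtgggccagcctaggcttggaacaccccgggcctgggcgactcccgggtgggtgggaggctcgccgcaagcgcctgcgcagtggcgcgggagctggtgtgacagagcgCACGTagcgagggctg
*Mmp15*, chr8:95352046-95352267, plus strand: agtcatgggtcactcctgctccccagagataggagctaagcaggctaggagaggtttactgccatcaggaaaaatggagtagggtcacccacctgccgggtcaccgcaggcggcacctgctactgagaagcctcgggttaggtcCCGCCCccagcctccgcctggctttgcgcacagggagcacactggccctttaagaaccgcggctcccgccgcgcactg
*Timp3*, chr10:86300162-86300371, plus strand: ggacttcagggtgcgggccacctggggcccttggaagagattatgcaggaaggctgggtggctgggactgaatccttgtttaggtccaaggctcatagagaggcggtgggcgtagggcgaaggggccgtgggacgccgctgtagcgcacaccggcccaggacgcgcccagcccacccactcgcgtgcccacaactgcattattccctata

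The *Adamtsl4* and *P4ha1* windows ran up to the start site, and those of *Mmp15* and *Timp3* ended 28 and 40 bases before it. Both strands were searched. A GC box was present in 21 of the 25 full windows (84%), against 57.1% of the windows of tested genes and 32.7% of all windows. The full *Timp3* window is among the 21, with 1 GC box in the 40 exonic bases that were left off above. The ACGTG form of the hypoxia core was in 7 of the 25 (28%), against 21.4% and 16.6%. The AP-1 motif TGANTCA was in none of the 25, where 4.4% of the windows of tested genes and 6.75% of all windows hold it. These matches describe letters in a window and were not tested against the fold changes.

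*Adamtsl4* encodes an ADAMTS-like protein, which has the binding modules of the ADAMTS family but no protease domain and associates with fibrillin microfibrils (chromosome 3, 95676201 to 95687917). Its level was 21.8, 23.5, 20.1 and 21.3 CPM in WT replicates 1 to 4 and 62.1, 39.1, 67.3 and 56.7 CPM in KL-/- replicates 1 to 4. The genotypes did not overlap, and the spread was wider among KL-/- than among WT mice, with KL-/- replicate 2 the lowest of its genotype. The means were 21.6 ± 1.41 and 56.3 ± 12.3 CPM (SD, n = 4). The log2 fold change of 1.38 ± 0.15 (SE; 2.60-fold, FDR = 0.00235 by edgeR) was the largest positive one of the 41. Without KL-/- replicate 2 the log2 fold change was 1.53.

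The other ADAMTS-like genes did not pass the test, with log2 fold changes of -0.26 to 0.12. *Adamtsl5*, the one with the highest level per length in this role, was at 57.8, 65.8, 66.2 and 72.5 CPM in WT and at 56.7, 47.0, 58.9 and 59.1 CPM in KL-/- libraries. The 2 ranges overlapped, at a log2 fold change of -0.24 ± 0.093 (SE, FDR = 0.107). *Adamtsl4* itself moved from 5.36 to 13.9 FPKM, below *Adamtsl5*, which was at 18.4 FPKM in WT and 15.6 FPKM in KL-/- muscle. Summed over the 5 genes, the level was 23.4 to 27.1 FPKM in WT and 25.0 to 35.5 FPKM in KL-/- libraries.

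**Figure D3:**
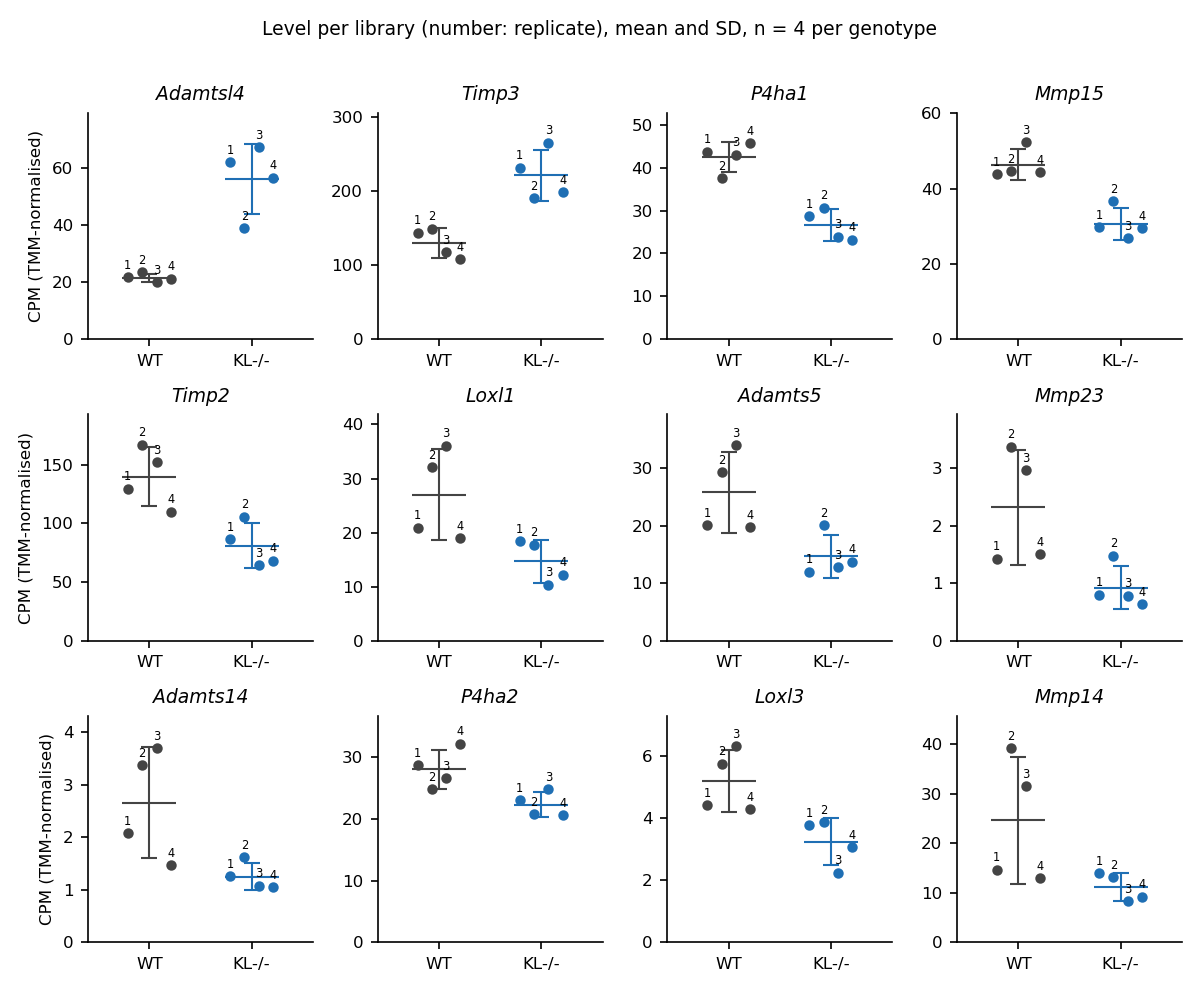
Level in each library (CPM on the y axis, starting at 0; numbers give the replicate) for 12 of the 41 genes by genotype (x axis), with the mean and SD over 4 mice as bars. KL-/- libraries lie above all WT libraries in *Adamtsl4* and *Timp3* and below all of them in *P4ha1*, *Mmp15*, *Timp2*, *Loxl1*, *P4ha2* and *Loxl3*.

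Of the 4 TIMPs, 1 rose, 1 fell and 2 did not pass the test, and the 2 called ones, *Timp3* and *Timp2*, had the highest mean levels per length of the 41 genes. *Timp3*, a TIMP that binds to the matrix and inhibits ADAM and ADAMTS proteases as well as metalloproteinases (chromosome 10, 86300412 to 86349505), was at 144, 149, 118 and 108 CPM in WT and at 231, 190, 265 and 199 CPM in KL-/- libraries. Every KL-/- library was above every WT library. The log2 fold change was 0.77 ± 0.13 (SE; 1.71-fold, FDR = 0.00813 by edgeR). *Timp3* lies inside *Syn3*, which is on the opposite strand and shares 1733 exonic bases with it, or 21.3% of the *Timp3* exons. Whether reads were counted by strand is not given in the sources used here, and the mean level of *Syn3* was 0.583 CPM for WT and 0.733 CPM for KL-/- libraries.

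*Timp2*, which inhibits metalloproteinases and also takes part with Mmp14 in activating pro-Mmp2, went the other way (chromosome 11, 118301061 to 118355411). It was at 129, 167, 152 and 110 CPM in WT and at 86.4, 106, 64.3 and 68.2 CPM in KL-/- libraries. The genotypes did not overlap, but KL-/- replicate 2 and WT replicate 4 lay close together. *Timp2* fell by 0.78 on the log2 scale, with an SE of 0.17 (FDR = 0.0205). The FDR was 0.0580 without WT replicate 2, 0.0585 without WT replicate 3, 0.0532 without KL-/- replicate 3 and 0.0611 without KL-/- replicate 4.

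Because these 2 inhibitors moved in opposite directions, their order by level per length changed. That order and the shares below rest on the deposited lengths of 4681 bases for *Timp3*, 3622 for *Timp2* and 1416 for *Timp4*. The merged exons of GENCODE hold 8144, 3896 and 5894 bases. In CPM, which ignore length, *Timp3* was already above *Timp2* in WT replicate 1, at 144 against 129. In WT muscle *Timp2* was at 38.6 ± 6.94 FPKM and *Timp3* at 27.7 ± 4.25 FPKM (SD, n = 4), whereas in KL-/- muscle *Timp2* was at 22.4 ± 5.23 and *Timp3* at 47.3 ± 7.30 FPKM. The ratio of *Timp3* to *Timp2* was 0.598 to 0.859 in the WT libraries and 1.39 to 3.19 in the KL-/- libraries. *Timp2* made up 39.5% to 52.2% of the summed level of the 4 TIMPs in WT and 15.0% to 35.5% in KL-/- libraries. The summed level itself was 64.3 to 96.1 FPKM in WT and 82.0 to 118 FPKM in KL-/- libraries, ranges that overlapped.

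**Figure D4:**
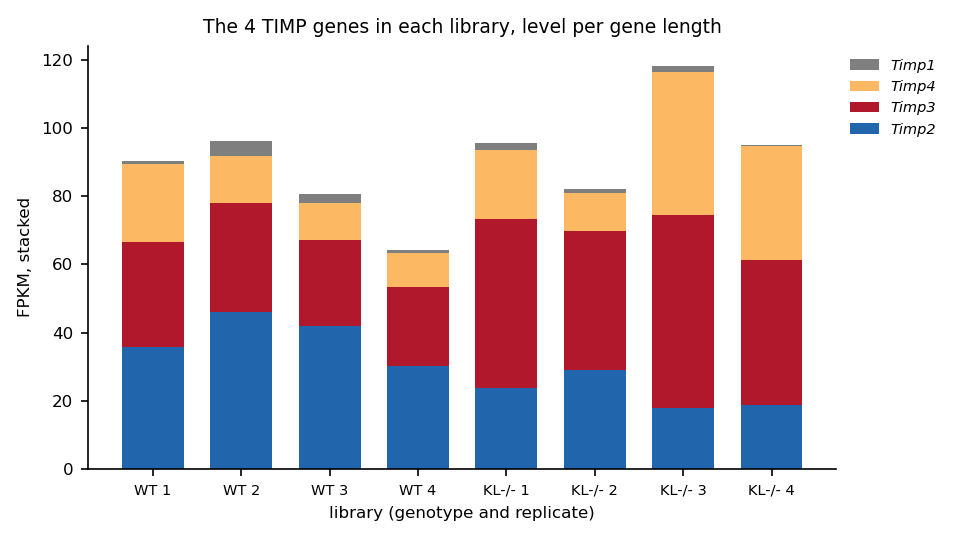
Levels of the 4 TIMP genes in each library (x axis), stacked, in FPKM (y axis). *Timp2* exceeds *Timp3* in the 4 WT libraries, and *Timp3* exceeds *Timp2* in the 4 KL-/- libraries.

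*Timp4* and *Timp1* were given values after their levels had been seen. *Timp4*, an inhibitor known for its expression in heart, was at 32.7, 19.6, 15.4 and 13.9 CPM in WT and at 28.5, 15.7, 59.5 and 47.3 CPM in KL-/- libraries. KL-/- replicates 3 and 4 were the highest of all 8, and the other 2 lay within the WT range, so that the log2 fold change of 0.89 ± 0.40 (SE) did not pass the test (FDR = 0.154), although it did without KL-/- replicate 2. *Timp1*, an inhibitor known to be induced in injured and inflamed tissue, was low in every library, at 0.817 to 3.84 CPM for WT mice and 0.264 to 1.95 CPM for KL-/- mice (FDR = 0.484).

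Of the 9 metalloproteinases, 2 fell and 7 did not pass the test. Their median log2 fold change was -0.77, and 8 of the 9 values were negative. *Mmp15*, a membrane-anchored metalloproteinase also called MT2-MMP (chromosome 8, 95352337 to 95374293), was at 43.8, 44.6, 52.4 and 44.3 CPM in WT and at 29.7, 36.6, 26.8 and 29.5 CPM in KL-/- libraries. The genotypes did not overlap, with WT replicate 3 above the other 3 WT libraries. *Mmp15* fell by 0.59 on the log2 scale, with an SE of 0.10 (FDR = 0.00844).

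*Mmp23*, a membrane-bound member with an unusual domain order (chromosome 4, 155650655 to 155653384), was lower at a far smaller level, with 1.43, 3.38, 2.97 and 1.51 CPM in WT and 0.802, 1.48, 0.787 and 0.641 CPM in KL-/- libraries. KL-/- replicate 2 lay between the WT libraries. The log2 fold change was -1.34 ± 0.37 (SE, FDR = 0.0419). The FDR was 0.104 without WT replicate 2, 0.112 without WT replicate 3, 0.0923 without KL-/- replicate 1, 0.102 without KL-/- replicate 3 and 0.114 without KL-/- replicate 4, and limma-voom gave 0.0533.

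*Mmp2*, the gelatinase that had the highest level per length of the metalloproteinases, was at 58.2, 100, 102 and 50.1 CPM in WT and at 61.9, 56.0, 25.5 and 38.6 CPM in KL-/- libraries. WT replicates 2 and 3 stood above the other 6 libraries, which overlapped between the genotypes. The log2 fold change of -0.77 ± 0.31 (SE) did not pass the test (FDR = 0.119). *Mmp14*, the membrane protease that activates pro-Mmp2, was picked after its values were seen, because WT replicates 2 and 3 stood apart in it too. It was at 14.7, 39.3, 31.5 and 12.9 CPM in WT and at 13.9, 13.2, 8.29 and 9.24 CPM in KL-/- libraries. The log2 fold change was -1.14 ± 0.35 (SE, FDR = 0.0607). *Mmp14* passed without WT replicate 1, without WT replicate 4 and in 3 of the 9 other settings. Those 3 were library totals, DESeq2 and the likelihood ratio test. The other metalloproteinases that did not pass the test were *Mmp9*, *Mmp11*, *Mmp17*, *Mmp19* and *Mmp28*, with log2 fold changes of -1.44 to 0.12. *Mmp19*, picked after its values were seen, was at a log2 fold change of -1.06 ± 0.35 (SE, FDR = 0.0682). It passed without WT replicate 4, without KL-/- replicate 2 and in the same 3 other settings as *Mmp14*.

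Of the 13 ADAMTS proteases, 2 fell, none rose and 11 did not pass the test. The log2 fold changes of those 11 ran from -0.71 to 0.57. *Adamts5*, an aggrecanase that also cuts versican (chromosome 16, 85858157 to 85901125), was at 20.1, 29.3, 34.0 and 19.8 CPM in WT and at 12, 20.1, 12.8 and 13.8 CPM in KL-/- libraries. KL-/- replicate 2 reached the level of the 2 lower WT libraries. *Adamts5* fell by 0.82 on the log2 scale, with an SE of 0.22 (FDR = 0.0360), and the FDR was 0.0915 without WT replicate 2, 0.0934 without WT replicate 3, 0.0851 without KL-/- replicate 1, 0.0952 without KL-/- replicate 3 and 0.0956 without KL-/- replicate 4.

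*Adamts14*, a procollagen N-proteinase (chromosome 10, 61197112 to 61273438), was at 2.08, 3.38, 3.70 and 1.47 CPM in WT and at 1.26, 1.62, 1.08 and 1.06 CPM in KL-/- libraries. WT replicate 4 lay below KL-/- replicate 2, so the genotypes overlapped. The log2 fold change was -1.08 ± 0.31 (SE, FDR = 0.0479), the highest FDR of the 9 called genes. The call was held only without WT replicate 4 (FDR = 0.0200) or without KL-/- replicate 2 (FDR = 0.0426), and the FDR was 0.0595 to 0.127 in the other 6 fits that left out a library and 0.0789 by limma-voom.

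*Adamts1*, a protease that cuts versican and aggrecan, and *Adamts8* had the highest levels per length of the ADAMTS proteases. *Adamts1* was at 36.0, 38.2, 40.8 and 53.7 CPM in WT and at 81.9, 67.3, 47.9 and 52.9 CPM in KL-/- libraries. WT replicate 4 lay above 2 of the KL-/- libraries, and the log2 fold change of 0.57 ± 0.18 (SE) did not pass the test (FDR = 0.0630). It did pass without WT replicate 4 and in 2 of the 9 other settings, DESeq2 and the likelihood ratio test. *Adamts8* spread more widely within a genotype than between them, at 7.51, 23.0, 44.9 and 32.2 CPM in WT and 28.0, 8.87, 27.7 and 14 CPM in KL-/- libraries (log2 fold change -0.45 ± 0.50 SE, FDR = 0.563). *Adamts1* and *Adamts5* are neighbours on chromosome 16, 55.0 kb apart, and their fitted changes had opposite signs, although *Adamts1* did not pass the test. The ratio of their levels per length, *Adamts1* over *Adamts5*, was 1.99 to 4.51 in WT and 5.54 to 11.3 in KL-/- libraries. Another neighbouring pair, *Adamts15* and *Adamts8* on chromosome 9, lies 20.1 kb apart. Both had negative log2 fold changes (-0.59 and -0.45), and neither passed the test.

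Among the 5 lysyl oxidases, 1 fell and 4 did not pass the test. *Loxl1*, needed for elastic fibre assembly (chromosome 9, 58287723 to 58313212), was at 20.9, 32.1, 36.1 and 19.0 CPM in WT and at 18.4, 17.7, 10.4 and 12.3 CPM in KL-/- libraries. The genotypes did not overlap, although WT replicate 4 and KL-/- replicate 1 were nearly equal. *Loxl1* fell by 0.88 on the log2 scale, with an SE of 0.25 (FDR = 0.0437), and the FDR was 0.11 without WT replicate 2, 0.117 without WT replicate 3, 0.0513 without KL-/- replicate 1, 0.104 without KL-/- replicate 3 and 0.117 without KL-/- replicate 4.

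*Loxl3*, another cross-linking oxidase, did not overlap between the genotypes either, with 4.41, 5.74, 6.29 and 4.27 CPM in WT and 3.77, 3.86, 2.24 and 3.05 CPM in KL-/- libraries. Its FDR of 0.0508 was just above the threshold, at a log2 fold change of -0.68 ± 0.20 (SE). It passed in 3 of the 9 other settings and in 2 of the 8 fits that left out a library. Those 3 settings were library totals, DESeq2 and the likelihood ratio test. *Loxl3* shares 535 exonic bases with *Htra2* on the opposite strand, whose mean level was 17.2 CPM for WT and 16 CPM for KL-/- libraries. *Loxl2*, which cross-links basement membrane collagen, was at 19.0, 39.7, 40.0 and 15.0 CPM in WT and at 15.4, 21.3, 8.0 and 10.6 CPM in KL-/- libraries. Its genotypes overlapped (log2 fold change -1.04 ± 0.38 SE, FDR = 0.0925), and it passed the test without KL-/- replicate 2. *Lox*, the founding member, was picked after its values were seen because its sign differed from those of the other 4, at 7.53 to 19.4 CPM in WT and 11.5 to 23.2 CPM in KL-/- libraries (log2 fold change 0.48 ± 0.29 SE, FDR = 0.281).

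The catalytic alpha subunits of collagen prolyl 4-hydroxylase were both below the WT range in every KL-/- library. *P4ha1* (chromosome 10, 59323296 to 59373304) was at 43.8, 37.6, 43.0 and 45.7 CPM in WT and at 28.7, 30.7, 23.9 and 23.2 CPM in KL-/- libraries. The genotypes did not overlap, and the means were 42.5 ± 3.48 CPM for WT and 26.6 ± 3.64 CPM for KL-/- mice (SD, n = 4). *P4ha1* fell by 0.68 on the log2 scale, with an SE of 0.10 (FDR = 0.00598). *P4ha2* was at 28.7, 24.8, 26.6 and 32.2 CPM in WT and at 23.0, 20.8, 24.8 and 20.6 CPM in KL-/- libraries, with WT replicate 2 and KL-/- replicate 3 side by side. Its log2 fold change of -0.33 ± 0.097 (SE) narrowly missed the threshold (FDR = 0.0504). *P4ha2* passed in 6 of the 9 other settings but in 0 of the 8 fits that left out a library.

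Summed, both subunits were at 19.9 to 25.0 FPKM in WT and at 14.5 to 16.9 FPKM in KL-/- libraries, without overlap. The ratio of *P4ha1* to *P4ha2* was 0.824 to 0.938 in WT and 0.558 to 0.855 in KL-/- libraries. *P4hb*, which encodes the beta subunit of the same enzyme and was picked after its values were seen, was at 178, 192, 193 and 177 CPM in WT and at 206, 194, 203 and 218 CPM in KL-/- libraries. These ranges did not overlap, and the log2 fold change of 0.15 ± 0.059 (SE) did not pass the test (FDR = 0.123).

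None of the 3 lysyl hydroxylases passed the test. *Plod1*, which hydroxylates lysines of the collagen helix, was at 49.3, 56.8, 66.1 and 42.1 CPM in WT and at 43.6, 46.4, 38.5 and 48.5 CPM in KL-/- libraries (log2 fold change -0.28 ± 0.13 SE, FDR = 0.181). *Plod3*, which also adds sugars to hydroxylysine, was at 19.4, 23.4, 24.7 and 20.7 CPM in WT and at 22.2, 20.1, 19.2 and 15.8 CPM in KL-/- libraries (log2 fold change -0.19 ± 0.12 SE, FDR = 0.293). Both genes overlapped between the genotypes. *Plod2*, which acts on the ends of the collagen chains and was picked after its values were seen, had almost equal means of 5.58 and 5.45 CPM (log2 fold change -0.030 ± 0.20 SE, FDR = 0.934), and its sign changed when WT replicate 2, WT replicate 3, KL-/- replicate 2 or KL-/- replicate 4 was left out.

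Levels per length differed widely among the 41 genes. *Timp3*, *Timp2*, *Timp4*, *Mmp2*, *Adamtsl5*, *Plod1*, *P4ha2* and *Adamts1* averaged over 10 FPKM across all 8 libraries, and 13 of the 41 genes averaged under 1 FPKM. *Loxl4*, *Mmp9* and *Timp1* had fewer than 10 counts in at least 1 library. Summed by role, metalloproteinases were at 36.0 to 68.2 FPKM in WT and 21.7 to 36.7 FPKM in KL-/- libraries, lysyl oxidases at 11.5 to 23.3 and 8.94 to 14.5 FPKM, and lysyl hydroxylases at 20.5 to 29.8 and 19.4 to 21.9 FPKM. These ranges overlapped between the genotypes in all 3 roles, as did those of the ADAMTS proteases, at 23.2 to 43.0 and 26.8 to 39.8 FPKM.

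WT mice differed among themselves in these genes. WT replicates 2 and 3 were the highest 2 WT libraries in 27 of the 41 genes (65.9%), against 23.7% of all genes tested. KL-/- replicates 1 and 2 were the highest 2 KL-/- libraries in 19 of the 41 (46.3%), against 20.7% of all genes. Both pairs were picked after the values of the 41 genes had been seen, so these shares are a description. The order held in most of the metalloproteinases and lysyl oxidases but in neither P4ha gene for WT, and in neither *Adamtsl4* nor *Timp3* for either genotype.

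Levels of marker genes of the cell types in whole muscle are given beside these results. For their counts of called genes, the shares over all genes tested were 7.35% higher and 6.67% lower. The 9 fibroblast markers, all measured and none at 0 in any library, were negative in all 9 cases with 3 lower by the test, and their summed level was 572 to 994 CPM in WT and 282 to 539 CPM in KL-/- libraries, without overlap. WT replicates 2 and 3 had the highest sums of their genotype. For the 8 tendon markers, 3 of them lower, the sums were 201 to 264 and 70.4 to 159 CPM, also without overlap. The sums of the 8 macrophage markers, 1 of them lower, were 62.3 to 133 CPM in WT and 45.3 to 78.8 CPM in KL-/- libraries, and those of the 6 endothelial markers, 1 of them lower, were 453 to 668 and 422 to 458 CPM, and both overlapped. The part of these cell types in the lower metalloproteinases, lysyl oxidases, *Timp2*, *Adamts5*, *Adamts14* and *P4ha1* was not tested.

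Of the remaining lists, Schwann cell, adipocyte and muscle fibre sums were above the WT range. The 6 Schwann cell markers, 3 of them higher, summed to 52.7 to 93.8 CPM in WT and 97.9 to 119 CPM in KL-/- libraries, and the 3 adipocyte markers measured of 5 listed, 1 of them higher, to 179 to 199 and 206 to 252 CPM. The adipocyte sum was nearly all *Fabp4*, the called gene, at 177 to 197 and 203 to 242 CPM, whereas *Adipoq* and *Cidec*, at 0.414 to 11.0 CPM, overlapped between the genotypes and were not called. The 7 muscle fibre markers, 1 of them higher (*Actn3*), also did not overlap in their sums. *Acta1*, *Mylpf*, *Tnnt3* and *Pvalb* overlapped between the genotypes. *Myh4*, with the highest mean of the 7 (35287 CPM in WT, 48545 CPM in KL-/- muscle), and *Ckm* did not overlap but were not called. The part of these cell types in the higher *Adamtsl4* and *Timp3* was not tested. Pericyte and smooth muscle markers (326 to 509 and 367 to 453 CPM) and satellite cell markers (35.3 to 42.3 and 36.1 to 43.6 CPM) overlapped, with none called. Of the neutrophil markers only S100a9 was in the table, at 0.610 CPM or less in WT and 1.41 CPM or less in KL-/- libraries, and of the red blood cell markers 1 of 5 was, with neither called.

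**Figure D5:**
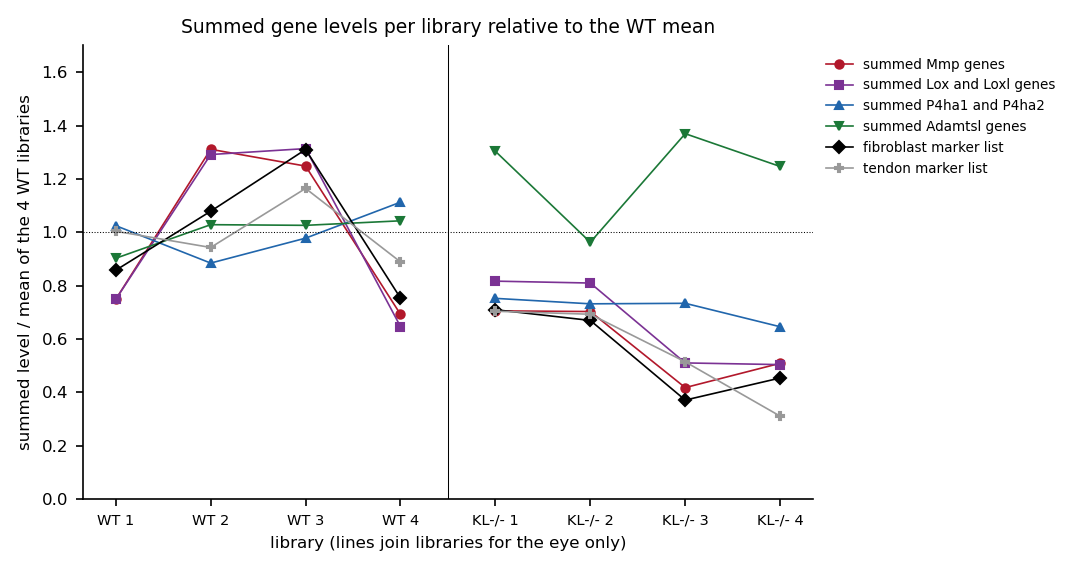
Summed level in each library divided by the mean of the 4 WT libraries (y axis) for 4 roles (FPKM) and 2 marker lists (CPM), by library (x axis). WT replicates 2 and 3 stand above WT replicates 1 and 4 in the metalloproteinase, lysyl oxidase and fibroblast marker sums, whereas the prolyl 4-hydroxylase sum of each KL-/- library lies below that of every WT library.

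Genes that act with these enzymes were read from 6 further lists, in which 1 gene was higher and 11 were lower of 65 measured. Of all genes tested, 7.35% were higher and 6.67% were lower. None of the 16 partners of collagen folding and modification passed the test, and 9 of the 16 had a negative log2 fold change. The lowest FDRs were those of *Crtap* (-0.51, FDR = 0.0540), *Serpinh1* (-0.87, FDR = 0.0566) and *P3h3* (-0.80, FDR = 0.0602), named after their values were seen. Of 7 procollagen-processing genes, *Pcsk6*, a proprotein convertase, fell by 1.18 on the log2 scale. Of 7 genes listed with the plasminogen system, whether or not they act in it, 2 fell. These were the protease inhibitor *Serpine2* (log2 fold change -0.69) and *Serpinf1*, which encodes the collagen-binding protein PEDF (-1.26). Of 10 membrane-bound ADAM genes, *Adam17*, the sheddase of TNF (-0.51), and *Adam19* (-1.39) fell. *Serpine2* was at 177, 186, 169 and 172 CPM in WT and at 111, 126, 103 and 95.6 CPM in KL-/- libraries, without overlap.

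Of 15 other matrix proteases, receptors and inhibitors, 1 rose and 3 fell. *Ctsl*, the lysosomal protease cathepsin L, was at 111, 116, 109 and 99.6 CPM in WT and at 149, 141, 160 and 147 CPM in KL-/- libraries, and its log2 fold change was 0.45 ± 0.065 (SE, FDR = 0.00498 by edgeR). *Prss23* (-0.54), *Htra1* (-0.84) and *Dpp4* (-0.92) were the lower genes, of which *Dpp4* was outside the rule for named genes and was added after its values were seen. Among 10 matrix substrates, versican (*Vcan*, -1.62), fibrillin-1 (*Fbn1*, -1.37) and decorin (*Dcn*, -0.94, also a fibroblast marker here) fell and none rose. *Fbn1*, which several ADAMTS-like proteins bind, was at 62.8, 105, 134 and 56.6 CPM in WT and at 40.9, 51.0, 19.7 and 27.0 CPM in KL-/- libraries, while *Adamtsl4* was higher in the same KL-/- libraries.

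Of these 12 genes, *Serpine2*, *Adam17*, *Prss23* and *Ctsl* kept an FDR under 0.05 in all 8 fits that left out a library. The other 8, *Pcsk6*, *Serpinf1*, *Adam19*, *Htra1*, *Dpp4*, *Vcan*, *Fbn1* and *Dcn*, did not pass without WT replicate 2, without WT replicate 3, without KL-/- replicate 3 or without KL-/- replicate 4, and their highest FDR in such a fit was 0.0821 to 0.127. Without WT replicate 1, *Adam19*, *Dcn*, *Dpp4* and *Serpinf1* did not pass either. The same held for *Adam19*, *Dpp4*, *Fbn1* and *Htra1* without KL-/- replicate 1, and for *Dpp4* and *Htra1* without WT replicate 4.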

How the data were processed

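RNA from TA muscles of 4 WT and 4 KL-/- mice was sequenced. The table that the authors deposited holds raw, unnormalized counts of reads on each gene and the gene's length, made with featureCounts from STAR alignments to mm10. The annotation version and the strand setting of the counting are not given in the sources used here. The labels name total RNA, whereas the methods describe mRNA libraries.

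The tests were run with edgeR 4.0.16 under R 4.3.3 (filterByExpr, TMM factors, genotype as the only term, glmQLFit and glmQLFTest) with Benjamini-Hochberg adjustment over 12551 genes at an FDR of 0.05. CPM are TMM-scaled, and FPKM are these CPM per kilobase of the deposited length. The SE was taken from the test statistic. Genotypes and replicate numbers come from the labels, which name separate mice. Within a genotype no 2 libraries were duplicates (chi-square per gene of 9.91 or more). Counts were simulated from these libraries for KL-/- against WT over 12545 genes. On them the test found 89% of genes changed by 1 on the log2 scale and 99% of those changed by 2, with 11 false calls. Each share rests on 100 changed genes and was not worked out for the genes described here. Among the latter, *Mmp14*, *Loxl2*, *Mmp19* and *Mmp9* had log2 fold changes of -1.14, -1.04, -1.06 and -1.44 and were not called. Their SEs were 0.35, 0.38, 0.35 and 1.01. *Adamtsl4*, *Mmp23* and *Adamts14* also changed by more than 1 and were called. Not passing the test therefore does not show that a gene was unchanged.

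Alternatives were RLE factors, library totals, a minimum of 10 counts in every sample, no filter (which changed nothing, since all 12551 genes of the deposited table passed it), DESeq2 1.42.0, limma-voom (limma 3.58.1), the likelihood ratio test, the replicate number as a block, each library left out, and, added after the data had been seen, the quasi-likelihood fit of edgeR 3. On the simulated counts, false calls numbered 41 with DESeq2, 34 with the likelihood ratio test and 9 with limma-voom, against 11 with the quasi-likelihood test. The genes and lists were chosen with earlier results of these data known, so counts over a list carry no test. Values in every sample are given for those of the 41 genes with an FDR under 0.05, the 2 per role with the highest level per length and those without overlap between genotypes. Of each further list up to 3 called genes are named, by p. Genes outside this rule are marked as chosen after their values were seen. Promoter windows are from RefSeq. Protein sequences and *Kl* were not analysed here.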

Additional observations from a re-analysis of the deposited data

Results flagged for a closer look

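Among 82 sets of 4 libraries (41 genes in each genotype), 2 held a library far from the other 3 by Dixon's ratio, the gap to the nearest library divided by the range, above its 95% critical value. Chance flags about 1 in 20 such sets, and 2 of 82 is 2.44%. *Mmp15* was at 52.4 CPM in WT replicate 3 against 43.8 to 44.6 CPM in the other WT libraries (ratio 0.905), on the side away from the KL-/- libraries, and it kept an FDR under 0.05 when that library was left out. *Mmp9*, the gelatinase of neutrophils and macrophages, was at 12 CPM in WT replicate 2 against 0.735 to 1.11 CPM in the other WT libraries (ratio 0.967). Its log2 fold change was -1.44 ± 1.01 (SE, FDR = 0.348) and became 0.41 without that library. In the same library *Timp1* was at 3.84 CPM, its highest level, and *Ctsk*, the osteoclast and fibroblast protease cathepsin K, picked after its values were seen, was at 26.5 CPM against 6.13 to 12.7 CPM in the other WT libraries. The macrophage marker sum there was 101 CPM in a WT range of 62.3 to 133 CPM. Of the neutrophil markers only *S100a9* was in the table, near the floor at 0.324 CPM in WT replicate 2. The part of these cells in the *Mmp9* level was not tested.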

How the results depend on the processing

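The median log2 fold change of the 41 genes was -0.37 and stayed between -0.49 and -0.26 under every alternative. Of the 41 genes, 7 were lower, and 12 were with library totals, 11 with DESeq2, 12 with the likelihood ratio test and 2 to 11 with a library left out. Of the further lists, 11 genes were lower, and 23 were with library totals, 21 with DESeq2, 22 with the likelihood ratio test and 3 to 18 with a library left out. In the same lists 1 gene was higher, and 2 were with RLE factors, 4 with DESeq2, 2 with the likelihood ratio test and 1 to 3 with a library left out. Genes higher among the 41 numbered 2 or 3 throughout. The count over all genes, 1759 (14%), rose in the same settings. It was 2619 (20.9%) with library totals, 2456 (19.6%) with DESeq2 and 2124 (16.9%) with the likelihood ratio test. With a library left out it ran from 762 to 2755. Library totals moved the median of all genes to -0.13 and the share of higher genes among those called from 52.4% to 18.8%.

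Without a library, the log2 fold change of *Mmp9* ran from -2.18 to 0.41 and that of *Plod2* from -0.13 to 0.11. *Adamts10*, *Adamtsl1*, *Adamtsl2*, *Loxl4* and *Mmp11* also changed sign without a library, with values between -0.54 and 0.45, and *Adamtsl1* and *Adamtsl2* did with library totals. None of these genes was called with all 8 libraries. With the replicate number as a block, 671 of all genes were called, 2 of the 41 higher and 5 lower (*Loxl1* and *Adamts14* were lost), and 2 and 4 genes of the further lists. Same-numbered libraries correlated at -0.368 to 0.181 in their deviations from the genotype means, and 1 of 8 correlated best with its own number, so the libraries were taken to share only a number. The depth limits *Loxl4*, *Mmp9* and *Timp1*, which had fewer than 10 counts in at least 1 library. A minimum of 10 counts in every sample left 12173 genes and 38 of the 41, of which 8 were lower. The fit of edgeR 3, chosen after the data had been seen, called 1715 genes and 8 lower. The causes of these shifts were not tested.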
